A study of Mus musculus with 4 samples.

Results

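Among the peaks of a list titled as differential, from an m6A study of mouse embryonic stem cells with and without Zfp217 knockdown, 439 were single uninterrupted stretches of 600 nt or more. They were chosen by 2 values of the list itself, a block count of 1 and a length of at least 600 nt, so their lengths are a description and not a finding. They made up 11.5% of the 3801 uninterrupted peaks (95% Wilson interval 10.6 to 12.6) and 10.4% of all 4206 listed peaks (9.55 to 11.4). The other 3362 uninterrupted peaks were shorter than 600 nt, and 405 peaks were split into several blocks.

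N6-methyladenosine (m6A) is the most common internal modification of messenger RNA. A nuclear methyltransferase complex built around METTL3 and METTL14 places it, and reader proteins of the YTH family bind it and bear on the splicing, translation and decay of the transcript. Methylated sites are known to gather around stop codons, in 3′ untranslated regions and in long internal exons. In a pulldown of fragmented RNA, a site shows as enriched reads over a stretch that reaches beyond the modified base, so a long enriched stretch does not by itself tell 1 site from several.

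The 4 libraries came from the feeder-free mouse embryonic stem cell line CCE, kept with leukemia inhibitory factor. Control cells carried a control shRNA and knockdown cells an shRNA against Zfp217, a zinc finger protein; both were under puromycin selection, at 1 microgram per mL from day 4 after infection, for 5 days. From each arm an input library of fragmented total RNA and a library of fragments pulled down with an antibody against m6A were made, with 1 library per group, and the sources used here do not give the hairpin sequences. The titles of the pulled-down libraries name Zfp217 next to IP, while their antibody field names m6A. The title line of the list calls its entries differential peaks, so they need not be all m6A peaks of these cells, and what was compared is not stated. It ties no peak to a library or an arm, its score is 900 in every row, and it gives neither a direction nor a gene name, so nothing below is a difference between control and knockdown cells. Library depth is unknown. Peaks are given by position in the mouse build mm9, counted from 1; no mm9 sequence or annotation was used here, and the genes, exons and untranslated regions under the peaks were therefore not analysed.

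Long peaks became fewer with increasing length. The median of the 439 long peaks was 806 nt, the quartiles were 687 and 1016 nt, and the longest reached 2458 nt. The labels give a fragment size of about 100 nt, so the median long peak was 8.06 fragments long and the longest 24.6, against 1.8 fragments for the median of the shorter peaks (180 nt). Together the long peaks covered 391 kb, which was 34.5% of the summed length of uninterrupted peaks. Thus 11.5% of the uninterrupted peaks held 34.5% of their summed length. Of the long peaks, 114 reached 1000 nt (26.0%), 18 reached 1500 nt and 2 reached 2000 nt.

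**Figure D1:**
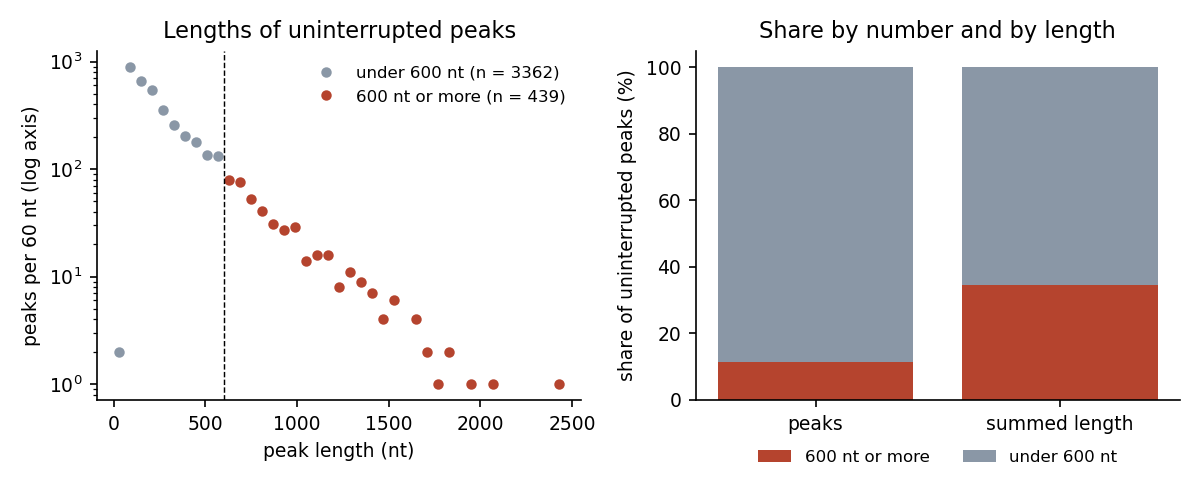
Left, number of uninterrupted peaks per 60 nt of length on a log axis, with the threshold of 600 nt dashed; right, share of uninterrupted peaks of 600 nt or more by number and by summed length, in percent. The counts fall with length on both sides of the threshold, and the long peaks are 11.5% by number and 34.5% by length.

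The threshold fell on a multiple of 30 nt, near which lengths in the list gather, and parted peaks of nearly the same length. Between 570 and 600 nt there were 58 peaks, and between 600 and 630 nt there were 42, the upper bound left out in each case. Exactly 600 nt was the length of 13 peaks, and 32 peaks measured 590 nt or more but less than 600. At this edge a few nt decided membership. The first of the 600 nt peaks in genome order lay on chromosome 2, minus strand, from 84442377 to 84442976, and its nearest peak on the strand was 13.8 kb away. The next 2 were plus-strand peaks of chromosome 14 (22489468 to 22490067 and 79828147 to 79828746), with neighbours at 508 and 719 bp. On chromosome 15 the peak from 6746535 to 6747134 had a neighbour at 119 bp, and the one from 50492085 to 50492684 had one at 58 bp. Just outside, peaks of 599 nt lay on chromosomes 1 (184246643 to 184247241), 3 (102935330 to 102935928), 8 (81714046 to 81714644), 10 (127179731 to 127180329) and 13 (55644321 to 55644919). Their nearest peaks were 411 kb, 222 kb, 114 kb, 328 bp and 2438 kb away. Members on either side of the threshold thus stood both close to and far from other peaks.

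The 10 longest members ranged from 1649 to 2458 nt, and 7 of them were listed on the minus strand. Of the 10, 3 had another peak of their strand within 1000 bp, against 34.9% of all long peaks, and 5 stood more than 100 kb from any on the strand, against 38.7%. The longest, on chromosome 15 from 76006018 to 76008475, had a peak of 151 nt 491 bp to its 5′ side. The 1851 nt peak on chromosome 9, from 106786615 to 106788465, had one of 210 nt at 208 bp on its 5′ side. The 1706 nt peak on the same chromosome, from 62643823 to 62645528, had one of 121 nt at 298 bp on its 3′ side. In all 3 cases the neighbour was a short peak, of 210 nt at most. Sides follow the strand in the list; how that was assigned is not stated, and the kit used for the libraries keeps no strand.

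Other members of this length stood far from any peak of their strand. On chromosome 8, plus strand, the 1975 nt peak (119480187 to 119482161) lay 2.98 Mb from the nearest peak of its strand, a peak of 3 blocks and 1139 nt. The 1741 nt peak on chromosome 18, from 38748318 to 38750058, lay 896 kb from its nearest. On chromosome 11 a peak of 1693 nt, from 100324045 to 100325737, lay 240 kb from its nearest, and on chromosome 16 one of 1674 nt, from 33012441 to 33014114, lay 213 kb from its nearest. The tenth longest, a plus-strand peak of 1649 nt on chromosome 1 (129698943 to 129700591), lay 320 kb from its nearest. Between these extremes, the 2067 nt peak on chromosome 4, from 133235881 to 133237947, had a neighbour at 3.26 kb (3255 bp), and the 1856 nt peak on chromosome 1, from 64780843 to 64782698, had one at 3.29 kb (3291 bp).

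Long peaks kept less strictly to the step of 30 nt that most lengths in the list follow. Within 1 nt of a multiple of 30 lay 232 of the 439 long peaks, or 52.8% (48.2 to 57.5), against 3077 of the 3362 shorter ones, or 91.5% (90.5 to 92.4). The departures were one-sided in both classes. Of the long peaks, 202 fell more than 1 nt short of the nearest multiple, or 46.0% (41.4 to 50.7), and 5 exceeded it by more than 1 nt. Those 5 were 12 to 14 nt over it, near the midpoint between multiples, and can as well be read as short of the next one. Among the shorter peaks, 280 fell more than 1 nt short, or 8.33% (7.44 to 9.31), and 5 exceeded the multiple by more than 1 nt. A range from 6 nt short to 1 nt over, set after the values were seen, took in 408 of the 439 long peaks (92.9%) and 99.3% of the shorter ones. The commonest long length was 660 nt, in 16 peaks, followed by 600 nt in 13, 630 nt in 10, and 658 and 720 nt in 9 each.

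The shortfall went with length. On a step were 98.0% of peaks under 150 nt, 93.9% from 150 to under 300 nt, 84.1% from 300 to under 450 nt and 72.1% from 450 to under 600 nt. Among the long peaks it was 58.6% (51.9 to 65.0) of the 215 from 600 to under 800 nt, 53.6% (44.4 to 62.7) of the 110 from 800 to under 1000 nt and 46.9% (37.2 to 56.8) of the 96 from 1000 to under 1500 nt. Of the 18 peaks of 1500 nt or more, 2 were on a step. Without those 18 peaks the share still fell in each successive class. The mean departure from the nearest multiple moved from 0.61 nt over it under 150 nt to -1.40 nt from 600 to under 800 nt and -2.44 nt from 1000 to under 1500 nt. A peak far short of a multiple counts as over the one before, so these means can understate the shortfall. Of the 10 longest peaks, 8 were short of a multiple, by 1 to 9 nt. The exceptions were the 1741 nt peak on chromosome 18, 1 nt over, and the 1693 nt peak on chromosome 11, 13 nt over. The latter was among the 5 long peaks near the midpoint between multiples. The 600 nt threshold marked no break in this course. How the peak calling set the lengths is not stated in the labels or the list.

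**Figure D2:**
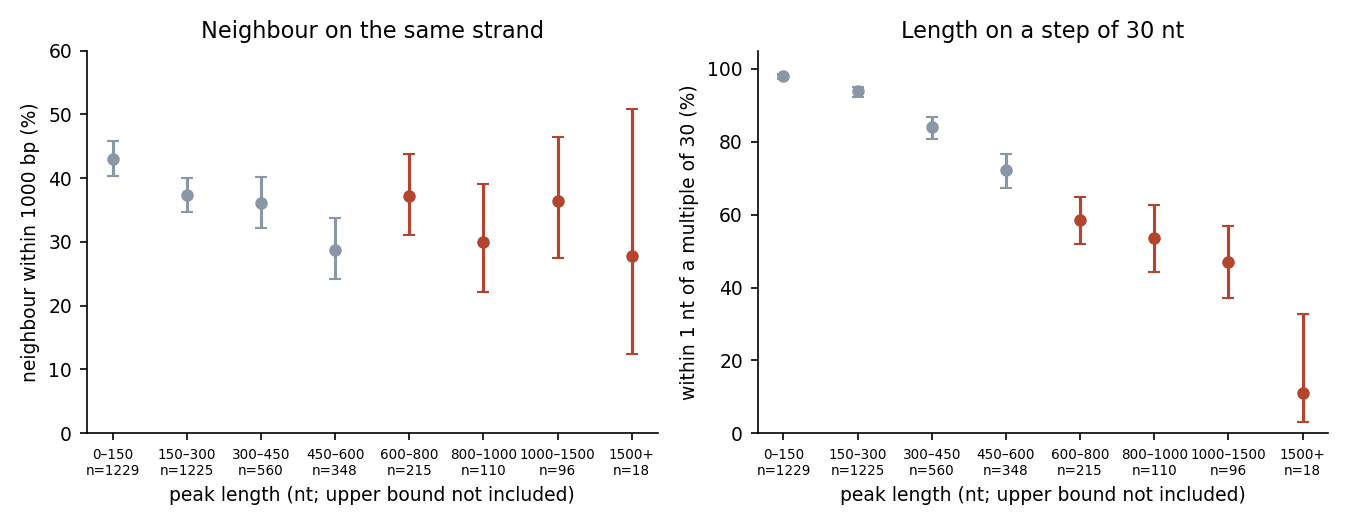
By length class of uninterrupted peaks (n under each class), left the share with another peak of the strand within 1000 bp and right the share with a length within 1 nt of a multiple of 30, in percent; bars are 95% Wilson intervals and classes from 600 nt are red. The left share is lowest, among classes of more than 20 peaks, at 450 to under 600 nt (28.7%), and the right share falls class by class from 98.0% to 46.9% and then to 2 of 18 peaks.

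Long peaks were found on 20 of the 21 chromosomes of the list. Chromosome 2 carried 49 and chromosome 11 carried 45, followed by chromosome 8 with 41, chromosome 1 with 33 and chromosome 7 with 30. Chromosome 18 carried 10 and chromosome X carried 4. The mitochondrial genome had 0 of 5 uninterrupted peaks at this length, with a Wilson upper limit of 43.4%. The approximate limit of 3 counts for a count of 0 gives 60%, but it is rough for as few as 5 peaks. Chromosomes differed in how many uninterrupted peaks they carried, so the share of those that were long is compared next.

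That share was 16.1% (12.1 to 21.1) on chromosome 8, 15.0% (11.6 to 19.3) on chromosome 2 and 15.0% (11.4 to 19.5) on chromosome 11. It was 6.92% (3.91 to 11.96) on chromosome 19, 7.14% (2.81 to 17.0) on chromosome X and 8.66% (5.79 to 12.8) on chromosome 5. The intervals of chromosomes 2 and 8 lay above the share of 11.5% over the whole list, chromosome 2 by a narrow margin, and the interval of no chromosome lay below it. With 21 intervals that are not corrected for their number, and with neighbouring peaks that are not independent, these differences are not shown to exceed sampling error. Median lengths within chromosomes ran from 719 nt on chromosome 16 (19 long peaks) to 926 nt on chromosome 9 (23 long peaks) and 1004 nt on chromosome X (4 long peaks).

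**Figure D3:**
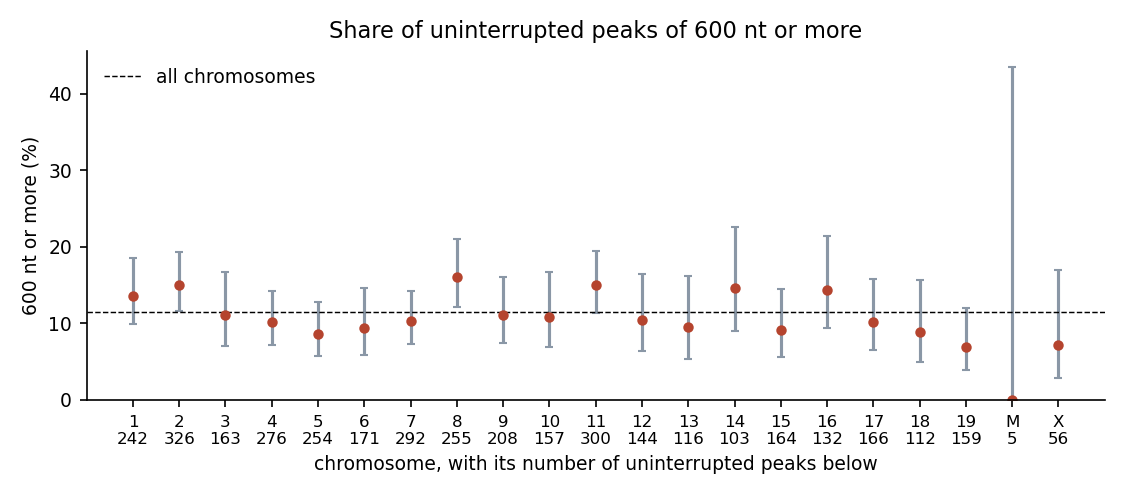
Share of uninterrupted peaks that were 600 nt or more on each chromosome, in percent, with 95% Wilson intervals and the number of uninterrupted peaks under each name; the dashed line is the share over all chromosomes. Points run from 6.92% on chromosome 19 to 16.1% on chromosome 8, apart from the mitochondrial genome with 0 of 5.

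Both strands carried long peaks in similar numbers. The plus strand had 234 and the minus strand 205, a plus share of 53.3% (48.6 to 57.9), against 51.0% (49.3 to 52.6) for shorter peaks. By length, the plus share was 50.7% from 600 to under 800 nt, 57.3% (47.9 to 66.1) from 800 to under 1000 nt and 59.4% (49.4 to 68.7) from 1000 to under 1500 nt. Of the 18 peaks of 1500 nt or more, 5 were on the plus strand (27.8%, 12.5 to 50.9), so the share did not run one way with length. All 4 long peaks of chromosome X were on the minus strand. Long peaks also stood near one another in places. Within 1 Mb, the largest number was 5, on chromosome 2 between 180393839 and 180988971, a span of 595 kb. They measured 660, 1291, 956 and 929 nt on the minus strand and 809 nt on the plus strand. Chromosome 11 had 4 long peaks, all on the plus strand, between 60000117 and 60598618. Chromosomes 4, 8, 9 and 15 also reached 4 within 1 Mb, each with peaks of both strands. How many of all listed peaks lay in these windows was not counted, so they may only be regions rich in peaks.

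Distances to the nearest peak spanned several orders of magnitude. Measured from edge to edge on the strand, 153 of the 439 had another listed peak within 1000 bp, 42 had their nearest between 1 and 10 kb, 74 between 10 and 100 kb, 114 between 100 kb and 1 Mb, and 56 beyond 1 Mb. The range from 1 to 10 kb thus held 9.57% of long peaks (7.16 to 12.7), against 10.2% of shorter ones (9.25 to 11.3).

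Set beside the shorter peaks, long peaks had a somewhat larger median distance with a wide error. The median was 30.03 kb (95% interval from order statistics, 12.5 to 58.9) for long peaks and 12.9 kb (9.51 to 15.7) for shorter ones. The 2 intervals overlap, and no interval of the difference was computed. A neighbour within 1000 bp was found for 34.9% of long peaks (30.5 to 39.4) and 38.3% of shorter ones (36.7 to 39.97). The difference was -3.46 percentage points, with an interval (Newcombe) from -8.07 to 1.39, so at this distance it was within counting error. The nearest peak on the strand was beyond 1 Mb for 12.8% of long (9.96 to 16.2) and 8.80% of shorter peaks (7.89 to 9.81), and these intervals do not overlap. It was over 100 kb away for 38.7% of long (34.3 to 43.4) and 33.4% of shorter peaks (31.9 to 35.0). No interval of the difference was computed at these distances. Within chromosomes, the median of long peaks was the larger on 14 of the 20 chromosomes with long peaks and the smaller on chromosomes 3, 4, 9, 14, 15 and 16. On chromosome 15 the median long peak was 777 bp from its nearest, against 9.27 kb for shorter peaks, while on chromosome 10 it was 350 kb against 15.1 kb.

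**Figure D4:**
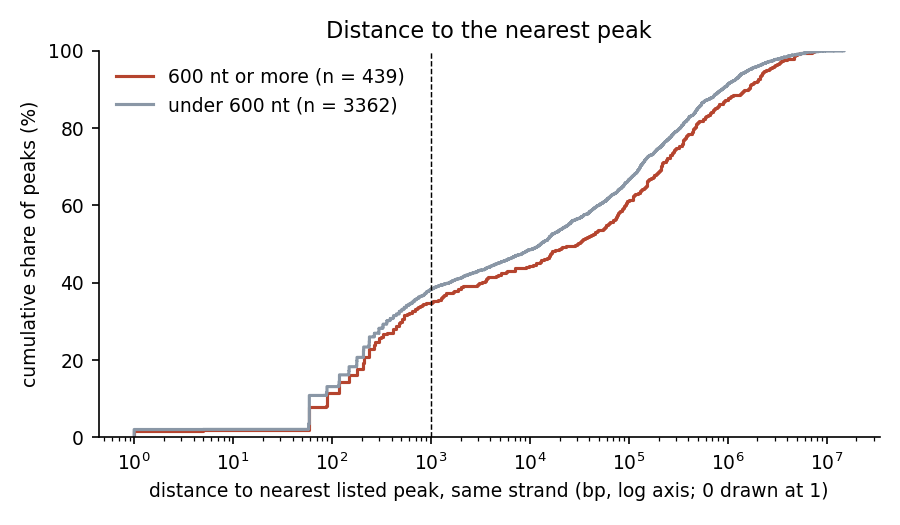
Cumulative share of uninterrupted peaks, in percent, by the distance in bp to the nearest listed peak on the strand (log axis, distance 0 drawn at 1), for peaks of 600 nt or more and for shorter ones; the dashed line is 1000 bp. Both curves rise less between 1 and 10 kb, which hold 9.57% and 10.2% of peaks, than below 1000 bp, where they stand at 34.9% and 38.3%.

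Distance did not run evenly with length, and the 600 nt threshold did not separate near from far. A neighbour within 1000 bp was found for 43.0% of peaks under 150 nt (40.3 to 45.8), 36.1% from 300 to under 450 nt (32.2 to 40.1) and 28.7% from 450 to under 600 nt (24.2 to 33.7). From 600 to under 800 nt it was 37.2% (31.0 to 43.8), from 800 to under 1000 nt it was 33 of 110 (22.2 to 39.1%) and from 1000 to under 1500 nt 36.5% (27.5 to 46.4). The class just below the threshold thus had a lower share than the class just above it. Their intervals overlap, which does not settle whether the shares differ, and no interval of the difference was computed. Median distances in these neighbouring classes were 46.4 kb (28.6 to 84.3) and 16.5 kb (2.92 to 43.7). Measured from centre to centre, the share within 1000 bp was 25.1% for long and 34.7% for shorter peaks; by construction this measure adds part of the length of the peak itself.

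Where a long peak had a separate neighbour within 1000 bp, the kind of neighbour was counted. Of 146 such long peaks, the nearest was an uninterrupted peak under 600 nt for 124, another long peak for 14 and a split peak for 8. The shorter kind was thus 84.9% of neighbours (78.2 to 89.8) and the long kind 9.59% (5.80 to 15.5). Of all listed peaks these kinds were 79.9% and 10.4%, both within those intervals. The whole list is not a matched base, since fewer split peaks (22.7%) than uninterrupted ones had a neighbour within 1000 bp. The 14 long neighbours are 7 pairs counted from both sides, so the interval of the long kind is too narrow. Lengths of these nearest neighbours had quartiles of 120 and 300 nt and a median of 181 nt, the same median as for the nearest neighbours of shorter peaks. It lay to the 5′ side for 77 and to the 3′ side for 69, a 5′ share of 52.7% (44.7 to 60.7). One neighbour within 1000 bp was found for 116 long peaks, 2 for 29, and 3 or more for 8, overlapping peaks included. Neighbours on both sides, without overlap, were found for 16.

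Gaps between long peaks and their neighbours also came in steps of 30 bp. From long peaks to an uninterrupted nearest neighbour there were 131 distinct gaps of up to 1000 bp, and 110 of them measured 1 or 2 bp less than a multiple of 30, or 84.0% (76.7 to 89.3). From shorter peaks it was 579 of 704 distinct gaps, or 82.2% (79.2 to 84.9). A gap between a long and a shorter peak can be counted on both sides of this comparison. A size of 57 to 60 bp, a range set after the values were seen, was found for 25 of the 131 gaps beside long peaks (19.1%) and for 22.7% of those beside shorter ones, and 1 gap beside a long peak was smaller. That gap of 5 bp lay on chromosome 2, 3′ of the 719 nt peak from 71694097 to 71694815. The median gap was 208 bp beside both long and shorter peaks.

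**Figure D5:**
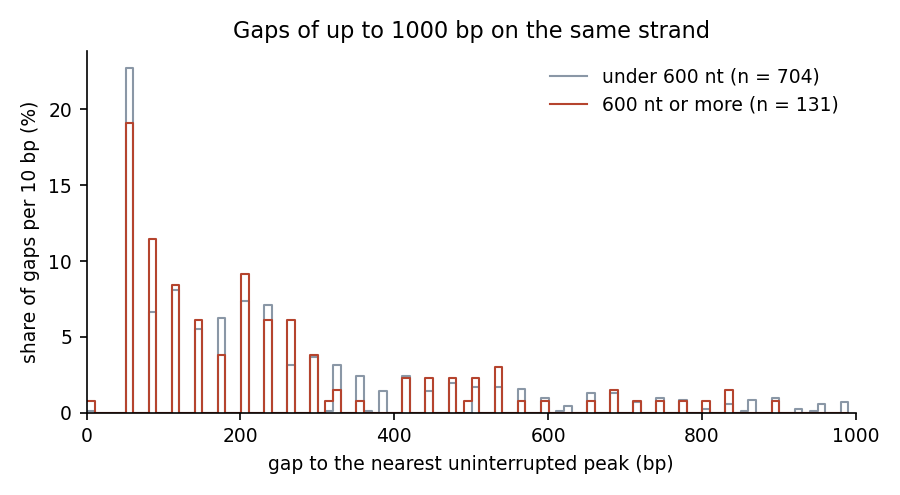
Share of distinct gaps per 10 bp, in percent, by the gap in bp between an uninterrupted peak and its nearest uninterrupted neighbour on the strand, up to 1000 bp, for peaks of 600 nt or more and shorter ones. Gaps stand in separate spikes about 30 bp apart, and the first large spike, at 57 to 60 bp, holds 19.1% of gaps beside long peaks and 22.7% of those beside shorter ones.

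After that 5 bp gap, the smallest was 58 bp. It was found 5′ of a 1196 nt peak on chromosome 4 (32892085 to 32893280), a 959 nt peak on chromosome 7 (107072807 to 107073765), a 749 nt peak on chromosome 14 (56489209 to 56489957) and the 600 nt peak on chromosome 15 (50492085 to 50492684). The neighbours across those gaps measured 61, 181, 61 and 241 nt. At the other end, the long peak farthest from any other on its own strand was a minus-strand peak of 806 nt on chromosome 3 (51059736 to 51060541), at 7.42 Mb from the nearest peak of its strand. It was followed by 1109 nt on chromosome 10 from 34002505 to 34003613 (7.17 Mb), 838 nt on chromosome 2 from 138109363 to 138110200 (5.53 Mb), 900 nt on chromosome 6 from 142776777 to 142777676 (5.35 Mb) and 716 nt on chromosome 3 from 68840854 to 68841569 (5.07 Mb). These 5 measured between 716 and 1109 nt. On either strand their nearest peaks were at 5.00 kb (4995 bp), 127 kb, 1.88 Mb, 376 kb and 15.6 kb, in the same order, so their distance rests on the listed strand; over all long peaks the largest distance on either strand was 4.80 Mb.

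In 7 places the nearest neighbour of a long peak, across a gap of up to 1000 bp, was another long peak. On chromosome 11, 2 plus-strand peaks of 806 nt (102977639 to 102978444) and 1015 nt (102978533 to 102979547) were parted by 88 bp and together covered 95.4% of 1.91 kb. On chromosome 5, peaks of 688 nt (77710062 to 77710749) and 1196 nt (77710929 to 77712124) were parted by 179 bp and covered 91.3% of 2.06 kb. Chromosome 8 had 2 such pairs, of 870 and 1200 nt parted by 239 bp (46035712 to 46038020) and of 718 and 896 nt parted by 477 bp (126551883 to 126553973). Among these 7, the pair with the widest span, 2.49 kb, lay on chromosome 13 from 55346929 to 55349415, with peaks of 750 and 1408 nt and a gap of 329 bp. The pairs on chromosome 2 (629 and 660 nt, gap 208 bp, 131003564 to 131005060) and chromosome 14 (1019 and 600 nt, gap 508 bp, 22487941 to 22490067) completed the set. In each of the 7 pairs the 2 peaks covered at least 76.1% of the span.

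Joined by gaps of up to 1000 bp, the 153 long peaks with a neighbour fell into 141 chains, of which 101 held 2 peaks, 27 held 3 and 13 held 4 or more. In the 129 chains with 1 long peak, that peak was the most 5′ in 58, the most 3′ in 61 and inside in 10, so both ends had similar counts. The 5′ share of all 129 chains, inside places included, was 45.0% (36.6 to 53.6). No interval was computed for the 2 ends alone. A chain of 2 peaks has no inside place, so the low inside count follows in part from chain size. Of the 12 chains with more than 1 long peak, one on chromosome 16 ran 5.39 kb on the plus strand, from 91655037 to 91660428, with 4 peaks that covered 3419 nt, among them long peaks of 1648 and 1319 nt. One on chromosome 5 ran 3.77 kb on the minus strand, from 39062116 to 39065886, with long peaks of 959 and 869 nt at its ends.

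Few long peaks overlapped another listed peak. On either strand, 12 did (2.73%, 1.57 to 4.72), against 133 of the shorter ones (3.96%, 3.35 to 4.67); 7 of the 12 overlapped on their own strand. A near repeat stood on the minus strand of chromosome 4, where peaks of 659 nt (141239747 to 141240405) and 660 nt (141239748 to 141240407) shared 658 nt. A mirrored pair stood on chromosome 11, with 1196 nt on the minus strand (76025836 to 76027031) and 1197 nt on the plus strand (76025847 to 76027043), sharing 1185 nt. On chromosome 9, plus strand, a peak of 718 nt (111175509 to 111176226) lay wholly inside one of 779 nt (111175457 to 111176235). The list passes through the chromosomes in 2 runs which the sources used here do not explain, and these last 2 came from different runs. Of the 82 uninterrupted peaks in the second run, 6 were long (7.32%, 3.40 to 15.1), against 433 of 3719 in the first (11.6%, 10.7 to 12.7).

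The other overlapping members were met by split or shorter peaks. In all but the last named, on chromosome 19, the overlapping peaks came from different runs of the list. On the minus strand of chromosome 2, a peak of 743 nt (120964453 to 120965195) held peaks of 509 and 120 nt, both of the second run, and one of 1016 nt (26747098 to 26748113) shared 591 nt with a split peak. On chromosome 8 a minus-strand peak of 1440 nt (26877379 to 26878818) shared 712 nt with a split plus-strand peak. On chromosome 12 a minus-strand peak of 1634 nt (8504624 to 8506257) held a plus-strand peak of 269 nt. A plus-strand peak of 750 nt on chromosome 13 (41054193 to 41054942) shared 137 nt with a split minus-strand peak, and a minus-strand peak of 601 nt on chromosome 19 (12844248 to 12844848) shared 158 nt with a split peak of its strand.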

How the data were processed

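The authors deposited 1 list of peaks for the series. CASAVA 1.4, Bowtie2, MACS 1.4 and the build mm9 are named, per the submitters' processing notes; the sources used here give neither their roles nor the libraries compared nor a threshold. The deposited score is the same in every row and ranks nothing. Groups were taken from the titles of the 4 samples. Members were found by block count and length (end minus start), using Python 3.11.15 (scipy 1.17.1, numpy 2.4.6); figures used matplotlib 3.10.9.

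Distance is from edge to edge of whole spans to the nearest other listed peak of the strand, split peaks included, and 0 for overlap. Peaks overlap where blocks share 1 bp or more. Shares have 95% Wilson intervals, differences of shares Newcombe intervals and medians order-statistic intervals. All treat peaks as independent, which neighbouring peaks are not, and hold no error between cultures, so no p-value is given. Lengths, steps, members and distances were checked on a made-up list of 3200 rows, where all 4 measures were recovered.

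Named peaks are the 10 longest, the 5 nearest the threshold on each side, the 5 closest to and 5 farthest from another peak, and overlapping members (12 rather than the 10 the rule allows); pairs, chains, windows of 1 Mb and steps were chosen after their values were seen. The members and measures were chosen with earlier results of these data known. The genome and annotation given here are not of build mm9, so gene names and sequences were not used.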

Additional observations from a re-analysis of the deposited data

How the results depend on the processing

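Thresholds of 500, 700 and 1000 nt gave 670, 305 and 114 long peaks in place of 439. Summed block lengths over all peaks gave 561, and merging uninterrupted peaks of a strand within 100 bp gave 478. At 700 nt the share of long peaks was 11.4% on chromosome 8 and 3.77% on chromosome 19, a lower share by construction, and these stayed the highest and lowest among chromosomes with at least 100 uninterrupted peaks; at 500 nt chromosome 11 was the highest (22.7%) and chromosome 19 the lowest. On either strand the median distance was 15.0 kb for long and 7.70 kb for shorter peaks. From centre to centre, 25.1% of long and 34.7% of shorter peaks had a neighbour within 1000 bp, and the difference of -9.65 points had an interval from -13.8 to -5.11, unlike that from edge to edge. Within 300 bp the shares were 25.7% and 28.2%, and within 3000 bp 39.6% and 43.0%. In all 9 settings of distance the long peaks had the larger median, by 1.95 to 2.94 times, and in all 11 settings of the share they had the lower one. The settings reuse largely the same peaks, so they are not separate evidence. Distances to the blocks of split peaks equalled those to their spans, since 0 peaks lay inside a gap of a split peak of their strand. Alternatives for genes were not run, because no annotation of build mm9 was used here. No paired analysis was possible because there is 1 library per group and no peak is tied to one. What depth limits is unknown, as the list holds no counts.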
